A study of Mus musculus with 6 samples.

Results

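Csf1 and 8 related genes were followed in GC-1 spg cells, an immortalised mouse line derived from type B spermatogonia: the growth factor genes Il34, Csf2, Gdnf, Kitl, Fgf2, Igf1 and Wnt5a, and the receptor gene Csf1r. All 9 were found by symbol among the 57180 gene rows of the deposited table. They were chosen by name as factors that act on spermatogonia or testicular macrophages, with the counts of the same groups already known. Their levels and differences are therefore a description, given without p-values. Whether these genes passed a threshold, also in refits of the same libraries, belongs to that description and is no independent support. The lists of other genes set beside them were also chosen with earlier results of these data known. Their called shares and adjusted p-values are likewise a description only. The 3 libraries labelled SNHG1 Overexpression came from cells transfected with SNHG1, a long non-coding RNA whose gene hosts small nucleolar RNAs, and the 3 libraries labelled Vector Control came from cells with the vector, both collected 24 h after transfection. All 6 libraries were of poly(A)-selected RNA from 1 cell line grown with serum, and all carry the words Non-obstructive azoospermia in their treatment label. Neither the construct's sequence nor the number of separate cultures is stated in the labels, so any p-value reflects only how far these libraries differed from each other, possibly for technical reasons.

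Germ cells in the testis depend on factors made by the cells around them. GDNF, which signals through GFRA1 and RET, and FGF2 sustain the self-renewal of spermatogonial stem cells, whereas KIT ligand, encoded by Kitl, drives spermatogonia that carry its receptor KIT to differentiate. CSF1 and IL-34 share the receptor CSF1R, on which macrophages depend, and in mice CSF1 also acts on the stem cell fraction of spermatogonia. In the intact testis these ligands are known mainly as products of somatic cells, so a spermatogonial line is usually studied as their target.

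Total counts were 19204858 to 21058425 in the libraries labelled SNHG1 overexpression and 15521900 to 21095427 in the vector libraries, so that 1 count stood for 0.0474 to 0.0644 CPM (counts scaled to a library of a fixed size). A count of 0 allows up to 3 counts, or 0.142 to 0.193 CPM, and these floors cover counting error only. Snhg1 (ENSMUSG00000108414) had 467, 555 and 487 counts in the libraries labelled overexpression, against 464, 402 and 385 in the vector libraries, and these ranges overlapped. Its log2 fold change was 0.14 ± 0.10 (SE) and did not pass (edgeR, adjusted p = 0.520), so every direction given here follows the labels alone. Of 14605 genes tested with edgeR, 350 were called at an adjusted p under 0.05, which is 2.40%, and the median over all 14605 was a log2 fold change of 0.007. Without SNHG1 overexpression replicate 1 the number of called genes was 807, and the other omissions of 1 library gave 123 to 176. Of 22 germ cell markers, 13 had no count in any library, among them Ddx4, Zbtb16, Sall4 and Kit, and 1, Gfra1, entered the test. Among 11 fibroblast markers, 8 entered it, with Col1a2 at 13160 CPM in the libraries labelled overexpression and 16150 CPM in the vector libraries. Of these 8, Pdgfra was called higher and Fn1, Col3a1, Col1a2 and Prrx1 lower (edgeR, adjusted p of 0.00796 to 0.04498). Without vector control replicate 3 all 5 lost their call (edgeR, adjusted p of 0.0514 to 0.154), and without vector control replicate 1 all but Col3a1 did. Without SNHG1 overexpression replicate 2 the calls of Fn1 and Col3a1 were lost, and without vector control replicate 2 those of Pdgfra and Prrx1. Over all 15 alternative settings the call was kept in 13 for Col3a1, in 12 each for Pdgfra, Fn1 and Col1a2, and in 8 for Prrx1. The sum of all 11 ran from 22990 to 24230 CPM in the libraries labelled overexpression and from 27770 to 29430 CPM in the vector libraries. Most of that sum came from Col1a2. The fibroblast markers Thy1 and Lum had no count in any library. Dcn, also not tested, stood at 0.199 CPM in the libraries labelled overexpression and 0.148 CPM in the vector libraries. The defining markers of the labelled germ cell type were thus mostly absent. Of the other somatic lists, 0 of 6 tested Sertoli cell markers, 0 of 2 Leydig cell markers and 0 of 2 peritubular myoid markers were called. The 13 Sertoli cell markers summed to 645.9 to 741.7 CPM in the libraries labelled overexpression and 627.6 to 653 CPM in the vector libraries, most of it from Rhox5, while Fshr, Wt1 and Cldn11 were among those with no count. Sox9 stood at 59.8 CPM in the libraries labelled overexpression and 62.1 CPM in the vector libraries, and Clu at 35.1 and 37.0 CPM.

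Csf1, Gdnf, Kitl, Wnt5a and Il34 were plainly expressed, Fgf2 and Csf1r stood near 1 to 3 CPM, and Igf1 and Csf2 were at the floor. Of the 7 genes that passed the filter on low counts, Csf1 and Gdnf were called, both higher in the libraries labelled overexpression, where 1.54% of all tested genes were called higher, and 0 were called lower, where 0.856% were. The groups did not overlap for 5 of the 7 (Csf1, Gdnf, Kitl, Csf1r and Wnt5a), as for 23.7% of all tested genes. Because the genes were picked with these counts known, nothing is read from those shares. Csf2 and Igf1 did not pass the filter. These are bulk samples, in which fewer expressing cells and less RNA per cell cannot be told apart.

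**Figure D1:**
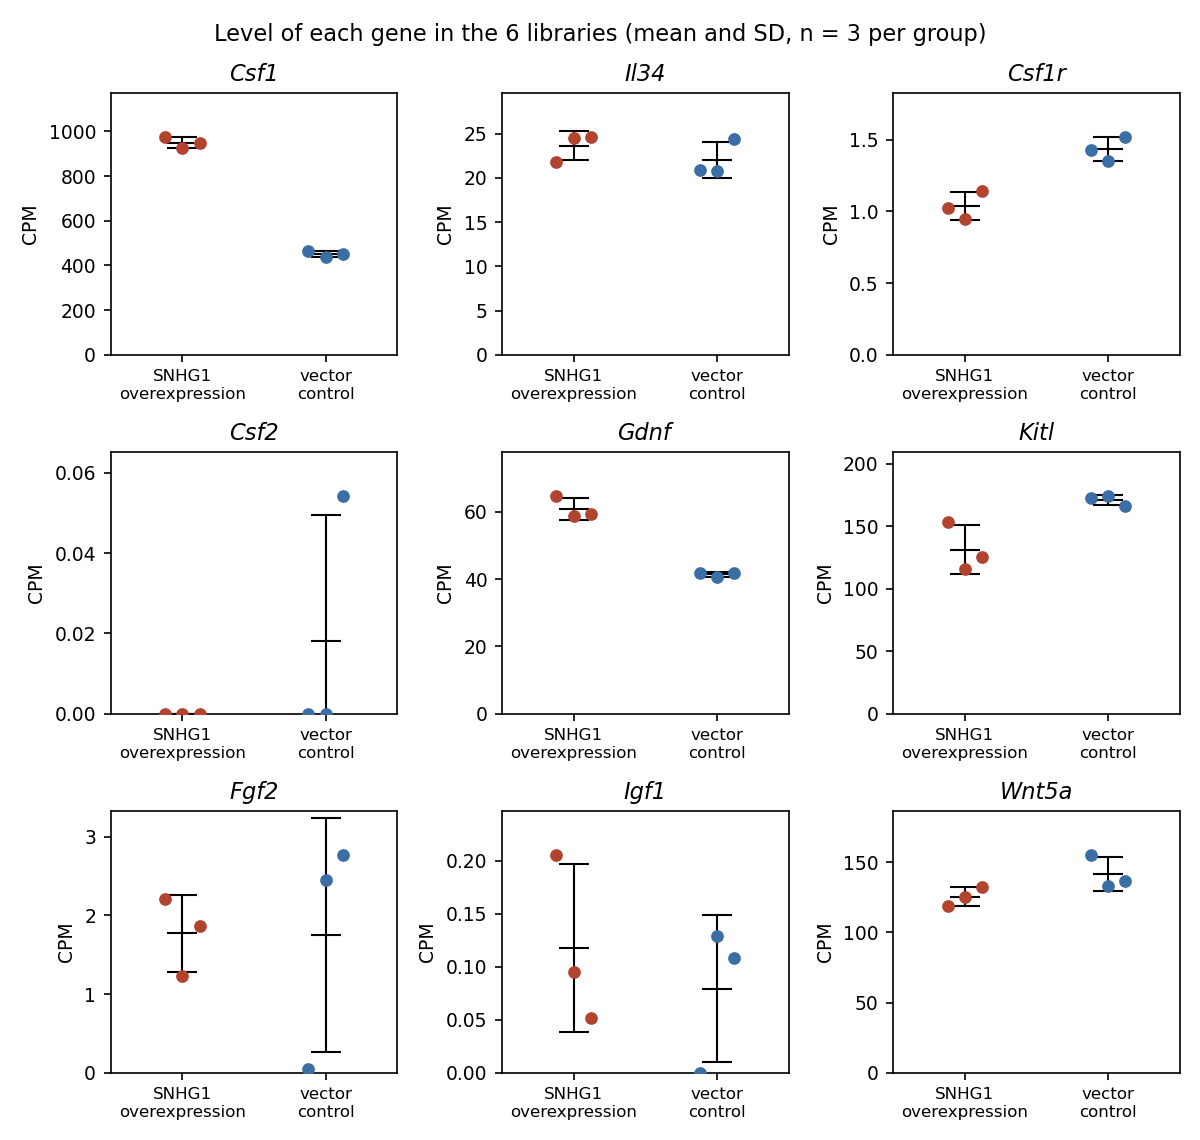
Level of each of the 9 genes in CPM (vertical axis, starting at 0) in the 3 libraries labelled SNHG1 overexpression and the 3 vector control libraries. Points are libraries and bars show the mean and SD. Csf1 and Gdnf are higher in all 3 libraries labelled overexpression, Kitl, Csf1r and Wnt5a are lower in all 3, and 1 vector library stands near 0 for Fgf2.

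Csf1 encodes colony-stimulating factor 1, the growth factor on which most tissue macrophages rely. Csf1 (ENSMUSG00000014599, chromosome 3, 107648364 to 107667785 in the deposited table, whose build is not named) had 19002, 19512 and 18261 counts in the libraries labelled overexpression, against 9779, 6791 and 8307 in the vector libraries. The 3 libraries labelled overexpression were all high and close together, and the groups lay far apart. In CPM the level was 949 ± 24.7 in the libraries labelled overexpression and 451 ± 13.9 in the vector libraries (SD, n = 3 each), which placed Csf1 83rd among all rows by mean CPM in the first group and 263rd in the second. The log2 fold change was 1.07 ± 0.05 (SE), a 2.10-fold difference with a 95% interval of 1.94 to 2.28. It was 1.05 without SNHG1 overexpression replicate 1, and Csf1 was called in all 15 alternative settings.

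Because Csf1 and Gdnf moved the same way, their sequences upstream of the annotated start are shown, with the only match to the NF-kappaB consensus in capitals. The windows hold the 250 bases before the start in the sense direction of the gene, from RefSeq on GRCm38.p6. Csf1 lies at chr3:107760470-107760719, minus strand, and Gdnf at chr15:7809798-7810047, plus strand.
Csf1: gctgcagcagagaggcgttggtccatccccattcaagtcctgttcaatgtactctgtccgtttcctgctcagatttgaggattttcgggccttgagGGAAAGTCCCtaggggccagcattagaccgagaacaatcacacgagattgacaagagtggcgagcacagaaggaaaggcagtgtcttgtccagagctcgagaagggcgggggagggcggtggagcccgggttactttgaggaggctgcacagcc
Gdnf: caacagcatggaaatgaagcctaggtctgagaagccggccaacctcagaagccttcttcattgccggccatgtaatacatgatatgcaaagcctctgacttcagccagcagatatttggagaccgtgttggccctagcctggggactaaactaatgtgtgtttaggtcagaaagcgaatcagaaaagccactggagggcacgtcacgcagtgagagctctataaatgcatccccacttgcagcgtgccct

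Of the 9 genes, 6 had an upstream window in the set of RefSeq windows used, with 7 windows in all, 2 of them for Gdnf. That set held none for Il34, Csf1r and Wnt5a. Both strands were searched for the NF-kappaB consensus, the AP-1 site TGANTCA, the GC box GGGCGG and the TATA box TATAAA. The NF-kappaB consensus had a match in 7.25% of 32851 windows of the same length, AP-1 in 6.75%, the GC box in 32.7% and the TATA box in 12.4%. Csf1 had 1 NF-kappaB match, on the opposite strand 145 to 154 bases before the start, and 2 GC boxes. Gdnf had a TATA box 26 to 31 bases before its first start and no match of any kind before its second. Igf1 had 1 AP-1 match, and Fgf2 and Csf2 had 1 GC box each. Kitl, which was not called, also had 1 NF-kappaB match, together with 3 GC boxes, 1 of which overlaps that match by 1 base, and a TATA box. The NF-kappaB matches of both genes are set side by side, with 10 bases on either side and the match in capitals; that of Kitl, at chr10:100015659-100015688 on the plus strand, lies inside the RefSeq gene span, downstream of another annotated start.
Csf1 match: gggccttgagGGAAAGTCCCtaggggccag
Kitl match: ccaacctctgGGAAGATCCCcgcccttcag

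A match to the consensus was found in the window of Csf1 and in that of Kitl, and none in either window of Gdnf. Whether NF-kappaB took part in the level of any of these genes was not tested. A match in letters is a description of the window and not a bound site.

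Il34, the other known ligand of CSF1R, was expressed at a lower level and was not called. Its counts were 425, 517 and 475 in the libraries labelled overexpression, against 439, 322 and 450 in the vector libraries, or a mean of 23.7 ± 1.60 CPM in the libraries labelled overexpression and of 22.01 ± 2.06 CPM in the vector group (SD, n = 3 each). The ranges overlapped, and the log2 fold change of 0.10 had a 95% interval of -0.122 to 0.330. On the deposited FPKM scale, which divides by a gene length, Csf1 exceeded Il34 by 19.5, 16.4 and 16.8 times in the libraries labelled overexpression, against 9.70, 9.19 and 8.04 times in the vector libraries.

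Csf1r, the receptor of both ligands, was barely detected. It had 20, 20 and 22 counts in the libraries labelled overexpression, against 30, 21 and 28 in the vector libraries. After scaling the level was 1.04 ± 0.0962 CPM in the libraries labelled overexpression and 1.43 ± 0.0823 CPM in the vector group (SD, n = 3 each), and the groups did not overlap. The log2 fold change of -0.47 had a 95% interval of -0.962 to 0.030, and Csf1r was not called. By FPKM, Csf1 exceeded its receptor gene by 923, 948 and 806 times in the libraries labelled overexpression, against 317, 314 and 288 times in the vector libraries. These absolute values also depend on the gene lengths, and they rest on 20 to 30 counts of Csf1r per library. The row of Hmgxb3, annotated on the opposite strand, overlaps Csf1r and held 10649 counts over the 6 libraries. Whether the authors counted by strand is not stated in the labels, so reads of the overlapping part may belong to either gene.

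Csf2, which encodes the granulocyte-macrophage factor GM-CSF, had 0 counts in all 3 libraries labelled overexpression and 0, 0 and 1 in the vector libraries. Both groups were under the floor of 3 counts, so no fold change is given. The list of other colony-stimulating factor and interleukin ligands and receptors behaved alike: of 9 genes, 6 had fewer than 10 counts over all libraries. The granulocyte factor Csf3 had 1, 2 and 3 counts in the libraries labelled overexpression and 5, 1 and 0 in the vector libraries, and the chains Csf2ra and Csf2rb of the GM-CSF receptor had at most 2 counts in any library labelled overexpression and at most 5 in any vector library. The only tested gene of the list was Sdc1, a heparan sulfate proteoglycan reported to bind IL-34, with a level of 464 CPM in the libraries labelled overexpression and 420 CPM in the vector libraries. Its log2 fold change of 0.14 ± 0.05 (SE) did not pass (edgeR, adjusted p = 0.207). Ptprz1, a phosphatase known as another IL-34 receptor, had no count in any library.

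Most macrophage markers were at or near the floor and did not move one way. Of 20 listed markers, 5 were tested and 1 was called, or 20%, against 2.40% of all tested genes. That was the lipopolysaccharide co-receptor Cd14, at 24.4 CPM in the libraries labelled overexpression and 14.4 CPM in the vector libraries, a log2 fold change of 0.76 ± 0.10 (edgeR, adjusted p = 0.00728). The sum of all 20 ran from 44.6 to 49.5 CPM in the libraries labelled overexpression and from 36.1 to 36.3 CPM in the vector libraries, both far below Csf1 itself, and Cd14 made up most of that difference. Cd68, a lysosomal protein gene, stood at 3.83 CPM in the libraries labelled overexpression and 2.47 CPM in the vector libraries, with no overlap, and did not pass (log2 fold change 0.64 ± 0.16, edgeR adjusted p = 0.0904). The lysosomal protease gene Ctss stood at 0.504 CPM in the libraries labelled overexpression and 0.953 CPM in the vector libraries, with no overlap, and did not pass (log2 fold change -0.89 ± 0.35, edgeR adjusted p = 0.250). Adgre1, which encodes the macrophage antigen F4/80, was not tested, at 0.168 CPM in the libraries labelled overexpression and 0.336 CPM in the vector libraries. Cd163, Tyrobp and Marco had no count, and Lyz2 stood at 15.3 CPM in both groups. Whether macrophage RNA took any part in the level of Csf1 was not tested.

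Gdnf was the second gene called higher. Gdnf (ENSMUSG00000022144, chromosome 15, 7840327 to 7867056 as deposited) had 1260, 1237 and 1145 counts in the libraries labelled overexpression, against 881, 629 and 769 in the vector libraries. The groups did not overlap in CPM, at 60.9 ± 3.27 in the libraries labelled overexpression and 41.4 ± 0.740 in the vector libraries (SD, n = 3 each). The log2 fold change was 0.56 ± 0.06 (SE), a 1.47-fold difference with a 95% interval of 1.33 to 1.63, and 0.51 without SNHG1 overexpression replicate 1. Gdnf was called in all 15 alternatives.

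Of the genes for the GDNF receptor chains, Gfra1 was low and Ret had no count, while Ncam1 was abundant. Gfra1, which encodes the GDNF-binding chain, had 53, 51 and 41 counts in the libraries labelled overexpression, against 41, 23 and 43 in the vector libraries, with overlapping ranges and a log2 fold change of 0.32 ± 0.22 (edgeR, adjusted p = 0.486). Ret, the signalling chain, had no count in any library, which allows up to 0.142 to 0.193 CPM. Ncam1, a cell adhesion molecule known to bind GDNF without RET, stood at 111 CPM in the libraries labelled overexpression and 151 CPM in the vector libraries. Its log2 fold change of -0.44 ± 0.07 passed (edgeR, adjusted p = 0.0170, with 1.78e-05 to 0.0807 over the alternatives), and the call was lost without SNHG1 overexpression replicate 2 or 3 and without vector control replicate 1 or 3.

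Whether Kitl was called depended on 1 library and on the method. Kitl (ENSMUSG00000019966, chromosome 10, 99851492 to 99936278 as deposited) stood at 153, 116 and 125 CPM in the libraries labelled overexpression, against 173, 174 and 166 CPM in the vector libraries. The vector libraries were close together, and SNHG1 overexpression replicate 1 lay nearer to them than the other 2 of its group did. With all 6 libraries its log2 fold change came to -0.38 ± 0.10 (SE; 95% interval -0.610 to -0.152), and Kitl was not called. Without SNHG1 overexpression replicate 1 it was -0.51 ± 0.06 and Kitl was called, as it also was by DESeq2 with all libraries (-0.38 ± 0.11). It was not called in the other 13 alternatives. Kit, the receptor of this ligand, had no count in any library.

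The ratio of Gdnf to Kitl on the FPKM scale was higher in the libraries labelled overexpression. Gdnf over Kitl was 0.983, 1.18 and 1.10 in the libraries labelled overexpression, against 0.565, 0.542 and 0.584 in the vector libraries. The groups did not overlap in this ratio, which was still under 1 in SNHG1 overexpression replicate 1. Its absolute value depends on the gene lengths behind the FPKM values, while the difference between the groups does not, since a length cancels between libraries.

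Fgf2, the basic fibroblast growth factor, was low, and 1 library decided its fold change. Its counts were 43, 26 and 36 in the libraries labelled overexpression, against 1, 38 and 51 in the vector libraries. Vector control replicate 1 was thus at a single count while the other 5 libraries held 26 or more. With all libraries its log2 fold change came to 0.05 ± 0.77 (SE; 95% interval -1.73 to 1.83). Without vector control replicate 1 it was -0.57 ± 0.29, and Fgf2 was called in neither fit. Among the 14605 tested genes, 6 had at most 1 count in 1 library and at least 20 in each of the other 5. The row of Nudt6, annotated on the opposite strand, overlaps Fgf2 and had 36, 94 and 56 counts in the libraries labelled overexpression, against 31, 27 and 42 in the vector libraries, so it was not at 0 in the library where Fgf2 nearly was.

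Igf1, the insulin-like growth factor that somatic testis cells supply to spermatogonia, was at the floor, with 4, 2 and 1 counts in the libraries labelled overexpression and 0, 2 and 2 in the vector libraries. No difference was detectable at this depth. Its receptor gene Igf1r was well expressed, at 284 CPM in the libraries labelled overexpression and 301 CPM in the vector libraries, and did not pass (log2 fold change -0.08 ± 0.05, edgeR adjusted p = 0.451).

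Wnt5a encodes a secreted WNT ligand that signals mostly without beta-catenin. It stood at 119, 125 and 132 CPM in the libraries labelled overexpression, against 155, 133 and 136 CPM in the vector libraries. The highest library labelled overexpression was just under the lowest vector library. Its log2 fold change came to -0.18 ± 0.08 (SE; 95% interval -0.349 to -0.002), and Wnt5a was not called in any setting. Its receptor genes Ror2 and Ryk stood at 4.54 and 24.1 FPKM in the libraries labelled overexpression and at 4.43 and 22.5 FPKM in the vector libraries, with overlapping ranges, and were not called. The receptor gene Ror1 was lower, at 4.16 FPKM in the libraries labelled overexpression and 4.97 FPKM in the vector libraries, with no overlap. It did not pass either (log2 fold change -0.26 ± 0.09, edgeR adjusted p = 0.185).

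**Figure D2:**
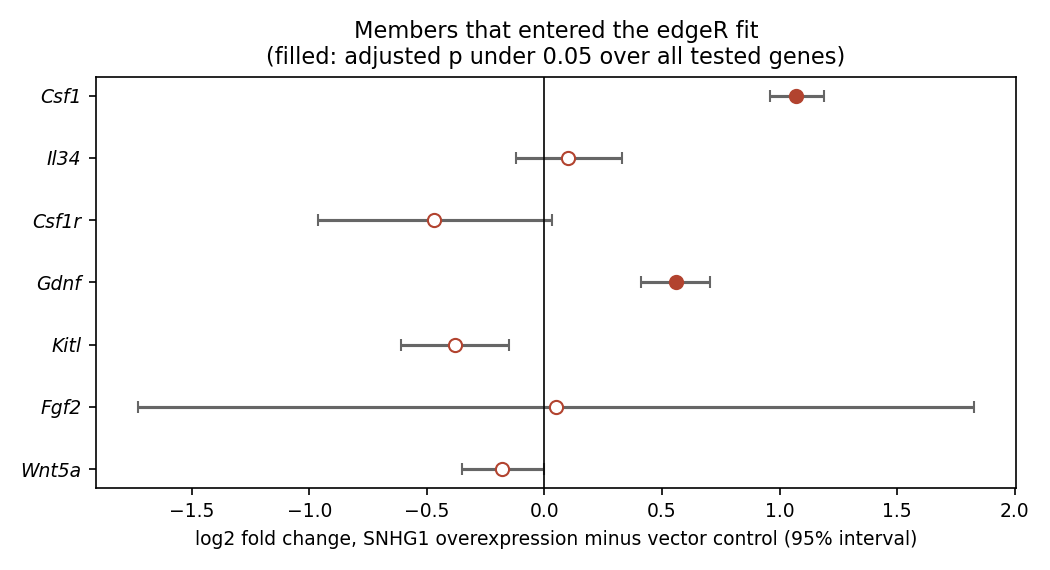
Log2 fold change of SNHG1 overexpression minus vector control for the 7 genes that entered the edgeR fit (horizontal axis), with 95% intervals over 3 libraries per group. Filled points mark the 2 genes called over all tested genes, Csf1 at 1.07 and Gdnf at 0.56. The interval of Fgf2 runs from -1.73 to 1.83.

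Within each group the genes were put in order by the deposited FPKM. In the libraries labelled overexpression Csf1 led at 120 ± 3.03 FPKM, followed by Gdnf at 16.6 ± 0.865, Kitl at 15.4 ± 2.25, Wnt5a at 10.0 ± 0.562 and Il34 at 6.84 ± 0.474 FPKM (SD, n = 3). Gdnf and Kitl overlapped there, and so did the lower pair Fgf2 and Csf1r. In the vector libraries Csf1 led at 56.6 ± 1.64 FPKM, followed by Kitl at 19.97 ± 0.481, Wnt5a at 11.3 ± 0.916, Gdnf at 11.2 ± 0.187 and Il34 at 6.34 ± 0.600 FPKM (SD, n = 3). Wnt5a and Gdnf overlapped in that group, as did Fgf2 and Csf1r, and Csf2 and Igf1. The length behind the FPKM values was 1.00 to 1.77 times the union of the exons in GENCODE M21 for these genes. With that union length in its place Kitl stood above Gdnf in the libraries labelled overexpression as well, and the order in the vector libraries was the same as by FPKM.

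**Figure D3:**
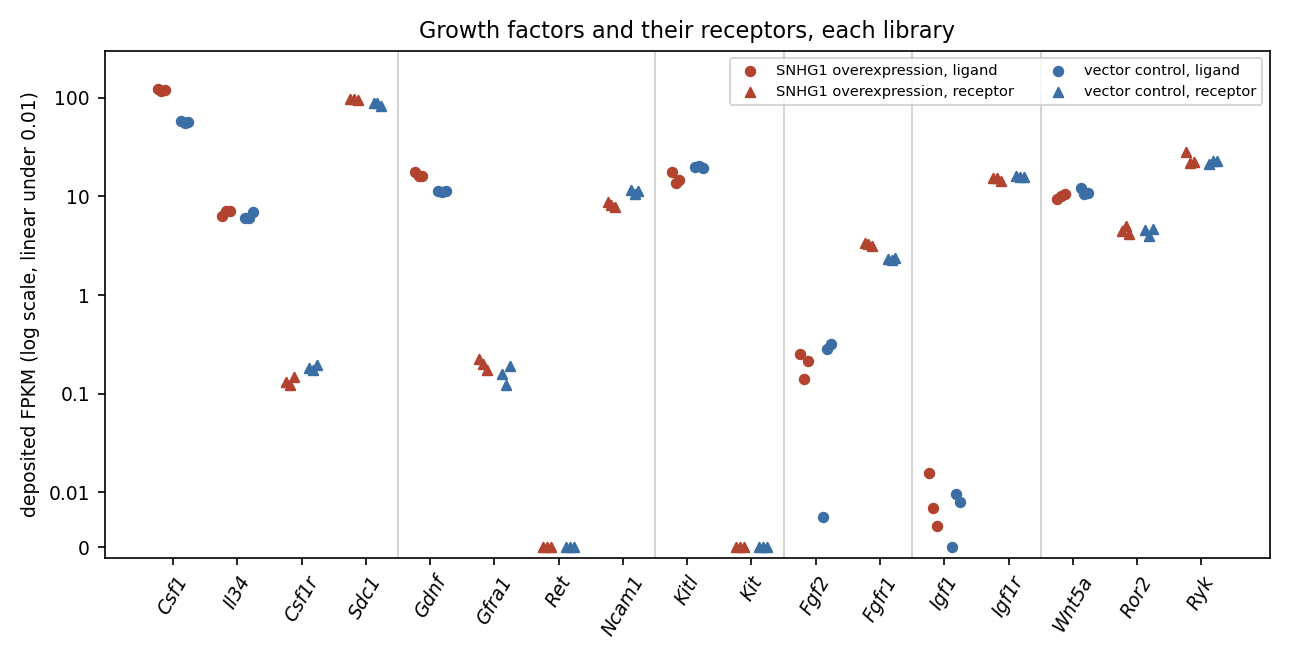
Deposited FPKM of the growth factors (circles) and of receptors or binding partners they are known to use (triangles) in each library, on a log axis that is linear under 0.01, with SNHG1 overexpression left of vector control for each gene. Csf1, Gdnf and Kitl lie above 10 FPKM in every library, whereas Csf1r and Gfra1 lie under 1 FPKM and Ret and Kit at 0.

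The wider receptor list held 28 genes, of which 20 were tested, Csf1r among them. In it 1 gene rose and 3 fell, and 16 did not pass, with a median log2 fold change of -0.09 against 0.007 for all tested genes; 20% of its tested members were called, against 2.40% of all tested genes. Fgfr1, a receptor for FGF2, rose to 74.2, 71.6 and 69.4 CPM in the libraries labelled overexpression, against 50.6, 49.3 and 52.0 CPM in the vector libraries, with no overlap and a log2 fold change of 0.50 ± 0.06 (edgeR, adjusted p = 0.00487). The WNT receptor gene Fzd4 fell by 0.56 ± 0.07 on the log2 scale, to 30.2 CPM in the libraries labelled overexpression against 44.4 CPM in the vector libraries (edgeR, adjusted p = 0.00584). Both kept their call in every alternative. Igf2r, the receptor that clears IGF2, fell by 0.26 ± 0.05 (edgeR, adjusted p = 0.0257), but lost its call in 8 of 15 alternatives (adjusted p of 0.000634 to 0.125). Fzd2, another WNT receptor gene, stood at -0.26 ± 0.07 and did not pass (edgeR, adjusted p = 0.113, with 0.0333 to 0.298 over the alternatives). Without SNHG1 overexpression replicate 2 or 3 and without vector control replicate 1 or 3, the count of called receptor genes was 2 in place of 4.

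Among 49 other ligands of the niche, 16 had no count in any library and 18 were tested. Of these 1 rose, 0 fell and 17 did not pass, with a median log2 fold change of 0.05. Thus 5.56% were called, against 2.40% of all tested genes. The gene that rose was Fgf7, which encodes keratinocyte growth factor, at 220 CPM in the libraries labelled overexpression and 175 CPM in the vector libraries. Its log2 fold change of 0.33 ± 0.05 (edgeR, adjusted p = 0.0200) lost its call in 6 of 15 alternatives (adjusted p of 3.43e-05 to 0.102), including the omission of any library other than SNHG1 overexpression replicate 1. The most abundant ligands that did not pass were Vegfa, at -0.01 ± 0.10, and Tgfb1, at 0.12 ± 0.08 (log2, SE; edgeR, adjusted p = 0.956 and 0.468). The Sertoli and stromal factors Fgf8, Cxcl12, Rspo1 and Wnt6 were among those with no count.

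Among binding proteins and proteases that handle these ligands, changes went both ways. Of 33 genes, 16 were tested, 2 rose, 2 fell and 12 did not pass, with a median of -0.02. Of those tested 25.0% were called, against 2.40% of all tested genes. Mmp9, a secreted gelatinase known to release KIT ligand from the cell surface in mouse bone marrow, rose to 22.5, 21.5 and 20.7 CPM in the libraries labelled overexpression, against 7.995, 9.28 and 9.43 CPM in the vector libraries. Its groups lay far apart, with a log2 fold change of 1.28 ± 0.10 (edgeR, adjusted p = 0.000660). The heparan sulfate proteoglycan Sdc4, a co-receptor for FGF2, rose by 0.60 ± 0.06 (edgeR, adjusted p = 0.00288), while Sdc2 of the same family fell by 0.48 ± 0.07 (edgeR, adjusted p = 0.0164, with 1.02e-06 to 0.0698 over the alternatives). Sdc2 lost its call in 5 of 15 alternatives, each time with a library left out.

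Of the membrane proteases that shed growth factors, Adam10 fell to 187, 160 and 166 CPM in the libraries labelled overexpression, against 300, 308 and 270.5 CPM in the vector libraries. That was a log2 fold change of -0.78 ± 0.08 (edgeR, adjusted p = 0.00232), and Adam10, Mmp9 and Sdc4 kept their call in every alternative. Adam17, which is known to shed CSF1 and its receptor, stood at 0.25 ± 0.13 and did not pass (edgeR, adjusted p = 0.371). Perlecan, encoded by Hspg2, at 0.13 ± 0.07 and Igfbp4, an inhibitor of IGF action, at 0.03 ± 0.19 were the most abundant that did not pass (log2, SE; edgeR, adjusted p = 0.362 and 0.958).

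Of 24 listed genes that respond to GDNF or FGF2 in mouse spermatogonia, 7 had no count, among them Lhx1, Id4 and Nanos2, and 11 were tested, of which 0 rose, 1 fell and 10 did not pass, with a median of -0.15 and 9.09% called. Over all tested genes 2.40% were called, 1.54% higher and 0.856% lower. A count of 0 called higher among 11 is near that background, and the share called lower rests on 1 gene. The phosphatase gene Dusp6, which did not pass, stood at 27.9 CPM in the libraries labelled overexpression and 25.1 CPM in the vector libraries, with no overlap (log2 fold change 0.15 ± 0.07, edgeR adjusted p = 0.335). No overlap was also seen for 23.7% of all tested genes. Spry1, a feedback inhibitor of receptor tyrosine kinase signalling, fell to 7.03, 8.35 and 7.26 CPM in the libraries labelled overexpression, against 13.0, 12.8 and 14.4 CPM in the vector libraries. Its log2 fold change was -0.83 ± 0.11 (edgeR, adjusted p = 0.0114, with 4.41e-05 to 0.0539 over the alternatives), and the call was lost without vector control replicate 1 or 3. The cyclin gene Ccnd2 at -0.15 ± 0.05 and Spred1, a further inhibitor of ERK signalling, at -0.25 ± 0.06 were the most abundant that did not pass (log2, SE; edgeR, adjusted p = 0.190 and 0.0666). Neither overlapped between the groups, and both were lower in the libraries labelled overexpression. Spry2 was likewise lower there with no overlap and did not pass (log2 fold change -0.28 ± 0.09, edgeR adjusted p = 0.182).

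The genes whose profile over the 6 libraries was nearest to that of Csf1 and of Gdnf were found among the 11096 other tested genes with a mean of at least 5 CPM. The measure was the root mean square difference of log2 CPM after each gene was centred on its own mean. Nearest to Csf1 were Rhbdf2, which encodes the rhomboid-like protein iRhom2, at 0.055, the NF-kappaB subunit genes Nfkb1 at 0.068 and Nfkb2 at 0.093, Micall2 at 0.094 and the interferon receptor chain Ifnar2 at 0.095. Rhbdf2 stood at 41.4 ± 0.909 CPM in the libraries labelled overexpression and 20.4 ± 1.40 CPM in the vector group (SD, n = 3 each). Nfkb1 stood at 185 ± 8.27 CPM in the libraries labelled overexpression and 85.2 ± 1.87 CPM in the vector group (SD, n = 3 each). Nearest to Gdnf were the TNF receptor gene Tnfrsf1b at 0.014, Stat3 at 0.020, Tapbpl at 0.033, Itpripl2 at 0.039 and the cathepsin gene Ctsl at 0.040. Tnfrsf1b stood at 128 ± 5.18 CPM in the libraries labelled overexpression and 86.9 ± 2.31 CPM in the vector group (SD, n = 3 each). With 2 groups of 3 libraries, such likeness mostly says that a gene differed between the groups by a similar amount.

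**Figure D4:**
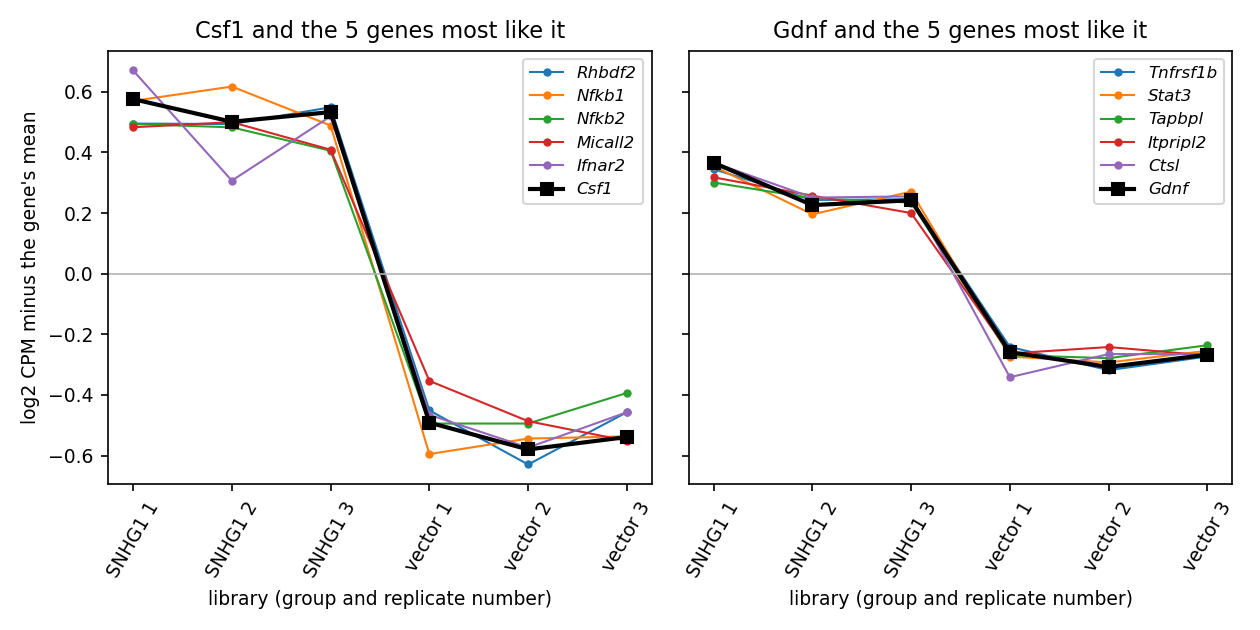
Log2 CPM of Csf1 and Gdnf (black squares) and of the 5 genes nearest to each, centred on each gene's mean, in the 3 libraries labelled SNHG1 overexpression and then the 3 vector libraries. Each set steps down between the groups, by about 1.07 for Csf1 and 0.56 for Gdnf.

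On the deposited coordinates, 19 tested genes lay within 100000 bases of one of the 9 genes. Of them 0 were called, against 2.40% of all tested genes, so 0 among 19 is near that background. For Csf1 the tested neighbours were Ahcyl1 and Gm36211, and for Gdnf Wdr70 and Gm49207. Rows of other genes overlapped 6 of the 9, but not Csf1, Gdnf or Kitl.

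**Figure D5:**
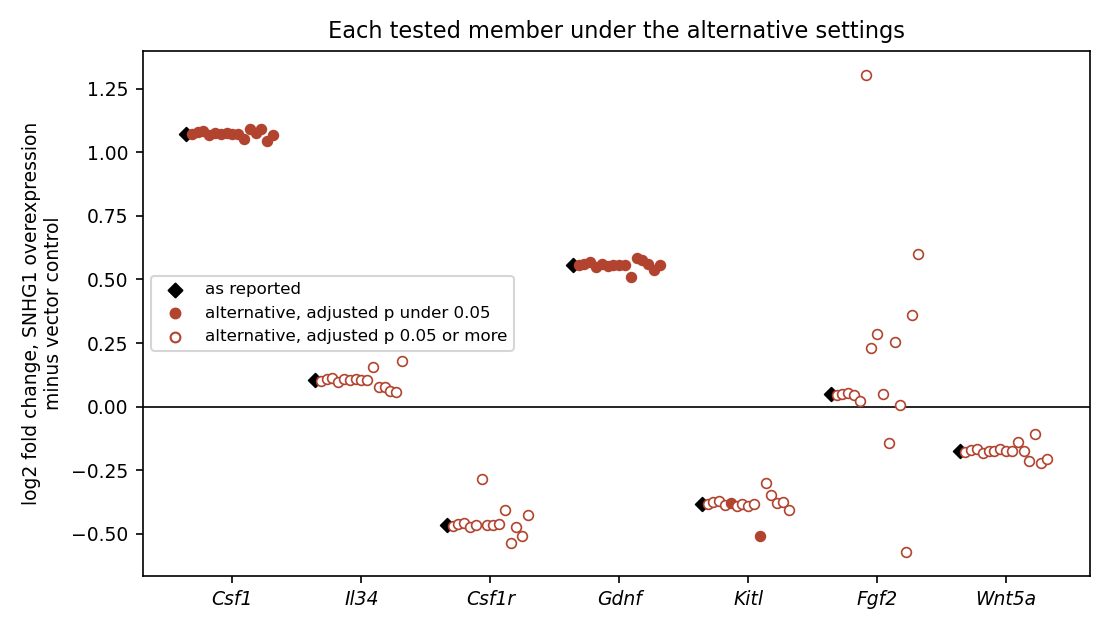
Log2 fold change of SNHG1 overexpression minus vector control for each of the 7 tested genes (vertical axis), as reported (black diamonds) and under up to 15 other settings (circles, filled where the adjusted p was under 0.05). Csf1 lies between 1.05 and 1.09 and Gdnf between 0.51 and 0.58 throughout, Kitl is called in 2 settings, and Fgf2 runs from -0.57 to 1.31.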

How the data were processed

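The authors deposited 1 table with whole-number counts and FPKM values per gene and library. The submitters' processing notes name StringTie, HISAT2, SAMtools 1.3.1 and the human build GRCh38, although the rows carry mouse identifiers. The counting method, its strand setting and the coordinates' build were not found in those notes or the labels. Libraries were grouped by their titles. The counts were tested with edgeR 4.0.16, quasi-likelihood fit (R 4.3.3; TMM, default filterByExpr, group as the only term, Benjamini-Hochberg adjustment over all genes, threshold 0.05); the pipeline was tested on simulated data. CPM values use TMM factors, and SE is the log2 fold change over the root of F. Alternatives used DESeq2 1.42.0, limma 3.58.1 (voom, and log2(FPKM + 0.1)), other scalings and filters, a replicate block and each library left out. For Nrg1, 2 rows exist and 1 was used. Promoter windows came from RefSeq.

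Members and lists were chosen with earlier results of these data known. Named by rule were all members, up to 3 called genes per direction and list, the 2 most abundant genes not called, and the 5 nearest profiles. Others, such as Ret, Kit, Gfra1, Csf3, Adam17, Pdgfra, Col3a1, Cd14, Cd68, Ctss, Adgre1, Dusp6, Nudt6 and the genes listed with no count, were named after their values were seen. Dcn, Sox9, Clu, Spry2 and Ror1 were named in the same way.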

Additional observations from a re-analysis of the deposited data

How the results depend on the processing

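Csf1 and Gdnf kept their call and direction in all 15 alternatives, and Il34, Csf1r and Wnt5a stayed uncalled with the same direction in each that gave an adjusted p (DESeq2 gave none for Csf1r). Kitl was called with DESeq2 (-0.377) and ran from -0.507 to -0.298 with 1 library left out. Fgf2 ran from -0.570 without vector control replicate 1 to 0.601 without vector control replicate 3, was -0.143 without SNHG1 overexpression replicate 1, and reached 1.305 with limma-voom. Against 350 called genes, DESeq2 gave 691, the replicate block 163 and the omission of 1 library 123 to 807. Same-numbered libraries did not deviate together over all genes (correlations of -0.00409, -0.0302 and -0.0210 over 14605 genes). These correlations cannot exclude a link that touched only some genes. The labels do not say whether same-numbered libraries were prepared together. With 1 library left out, called receptors ran from 2 to 4 against 4, other ligands from 0 to 1 against 1 (0 with the replicate block) and GDNF and FGF2 targets from 0 to 1 against 1 (2 with DESeq2). Small uncalled changes turned sign: with 1 library left out Vegfa ran from -0.12 to 0.046, Ror2 from -0.043 to 0.095, Ryk from -0.035 to 0.161 and Igfbp4 from -0.124 to 0.251, and Igfbp4 was -0.019 with limma-voom, -0.015 on FPKM and -0.017 with the replicate block. By CPM in place of FPKM, 3 genes took another place in the order in the libraries labelled overexpression and 2 in the vector libraries; by M21 exon length, 2 did in the libraries labelled overexpression. The causes were not tested. Robust dispersions and the M21 length were chosen after seeing the data. Depth limits Csf2, Igf1, Csf1r and Fgf2.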
